A study of Mus musculus with 19 samples.

Results

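The 10 genes described here regulate the making of mitochondria: the coactivators Ppargc1a (PGC-1α) and Ppargc1b (PGC-1β), the muscle regulator Perm1, the nuclear receptors Esrra (ERRα) and Esrrg (ERRγ), the transcription factors Nrf1 and Gabpa, and the mitochondrial transcription proteins Tfam, Tfb2m and Polrmt. They were taken from a fixed list of symbols, chosen with earlier results of these data known. They were found among 35675 genes, whose estimated read counts were summed over transcripts. The cells were primary myoblasts, the dividing precursors of muscle fibres, isolated from mouse hind limbs. They were sampled as proliferating myoblasts after 24 h in growth medium, as differentiated myotubes at 48 h, and as fused myotubes at 72 h. Libraries with a wild-type label (WT-labelled) numbered 3, 3 and 4 at these stages, and libraries with a Glud1-deficient label (KO-labelled) numbered 3, 2 and 4. Glud1 encodes glutamate dehydrogenase, a mitochondrial enzyme of glutamate metabolism. The age of the animals, and how and in which exons Glud1 was disrupted, are not given in the sources used here.

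PGC-1 coactivators do not bind DNA themselves but dock on transcription factors, among them the estrogen-related receptors (ERRs), which bind DNA without a known natural hormone, and NRF1. NRF1 and GABP, a factor of the ETS family, bind promoters of many nuclear genes for respiratory chain proteins and for the proteins that copy and transcribe mitochondrial DNA. In the organelle, TFAM packs the DNA and bends its promoters, TFB2M helps to open them, and POLRMT is the RNA polymerase. In skeletal muscle this network is known for its response to exercise and for setting the oxidative capacity of fibres.

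All 19 libraries held 16168131 to 30742634 estimated counts. Glud1 was present in every group and overlapped between the labels at each stage. Its mean was 189 ± 4.16 CPM (counts scaled to a common library size, corrected for library composition) in WT-labelled and 187 ± 2.66 in KO-labelled myoblasts (SD, n = 3 each). It was 106 ± 5.23 (n = 3) and 99.8 ± 4.47 (n = 2) in differentiated myotubes, and 135 ± 4.5 and 133 ± 3.82 (n = 4 each) in fused myotubes, with edgeR adjusted p of 0.851, 0.195 and 0.75. File names mark both genotype groups as KO, with a T added for the KO-labelled libraries, and the labels were followed. The labels number biological replicates without naming separate animals or cultures, so p-values measure only the spread between these libraries. All 7 myogenic markers were present at every stage, while summed fibroblast, endothelial, macrophage, adipocyte and Schwann cell markers stayed between 0 and 7.35 CPM. The summed level of 5 pericyte and smooth muscle markers went from 33.7 to 44.5 CPM in myoblasts to 168 to 182 in fused myotubes, nearly all of it from Abcc9 in the latter. In WT-labelled libraries Abcc9 rose from a mean of 2.28 to 169.7 CPM, Rgs5 fell from 38.7 to 0.11, Myh11 and Cspg4 were not called and Kcnj8 was too low to test. The part of these markers in the results was not tested. In bulk RNA, fewer cells expressing a gene and less RNA per cell cannot be told apart.

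Promoter sequences are shown for 5 members because, for NRF1 and GABP, the genes they are known to act on include other members. They come from RefSeq (build GRCm38.p6), run 5′ to 3′ on the gene's strand from 150 bases before to 30 bases from the start site, and carry in capitals each match, on either strand, to a searched motif. Esrra lies at chr19:6921779-6921958 (minus strand), Gabpa at chr16:84834974-84835153 (plus), Tfam at chr10:71238015-71238194 (minus), Tfb2m at chr1:179546247-179546426 (minus) and Polrmt at chr10:79746552-79746731 (minus).
Esrra: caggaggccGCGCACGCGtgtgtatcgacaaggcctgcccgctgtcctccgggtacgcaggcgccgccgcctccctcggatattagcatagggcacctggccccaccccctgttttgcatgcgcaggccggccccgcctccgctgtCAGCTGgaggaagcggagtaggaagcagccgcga
Gabpa: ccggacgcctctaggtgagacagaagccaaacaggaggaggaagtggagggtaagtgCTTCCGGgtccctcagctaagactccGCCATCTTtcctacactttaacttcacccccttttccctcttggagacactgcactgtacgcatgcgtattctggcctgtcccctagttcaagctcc
Tfam: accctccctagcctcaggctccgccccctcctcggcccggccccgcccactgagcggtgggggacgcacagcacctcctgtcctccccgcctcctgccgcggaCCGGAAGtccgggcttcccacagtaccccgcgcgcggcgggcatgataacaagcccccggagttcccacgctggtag
Tfb2m: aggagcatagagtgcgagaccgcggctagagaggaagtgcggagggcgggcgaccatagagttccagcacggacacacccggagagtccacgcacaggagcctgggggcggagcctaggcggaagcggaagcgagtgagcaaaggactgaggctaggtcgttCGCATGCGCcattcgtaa
Polrmt: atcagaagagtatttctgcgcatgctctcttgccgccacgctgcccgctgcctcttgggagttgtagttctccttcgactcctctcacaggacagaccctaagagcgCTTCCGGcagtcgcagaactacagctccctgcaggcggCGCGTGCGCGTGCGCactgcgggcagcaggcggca

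The search used the full RefSeq windows, 250 bases before to 50 after each start, of the 9 members present in that table, which have 13 promoters. The NRF1 motif GCGCANGCG was found in Esrra (bases -141 to -133 from the start site, counted with no base 0), in Tfb2m (13 to 21) and in Polrmt, as a pair of overlapping matches (-5 to 4 and 2 to 10). Of all 32851 promoters in the table, 6.25% held it. The GABP/ETS motif CCGGAAG was found in Gabpa itself (-93 to -87), Tfam (-47 to -41) and Polrmt (-43 to -37), against 8.86% of all promoters. Polrmt therefore held both. The YY1 motif AAGATGGC was found in Gabpa (-67 to -60; 2.75% of promoters), and the palindromic E-box CAGCTG in Esrra (-4 to 2; 16.3%). The MEF2 motif CTANNNNTA was found in promoters of Esrrg, Nrf1 and Perm1 (21% of all promoters). Neither the ERR element TCAAGGTCA (0.423%) nor the cAMP response element TGACGTCA (1.79%) was found in the 13 member promoters, which says only that these letters are not in these windows. The matches are descriptions of sequence and not measured binding sites.

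As annotated in GENCODE M21 on GRCm38, the protein-coding genes lie, with their strand, at the following places: Ppargc1a at chr5:51454250-51567726 (minus), Perm1 at chr4:156215868-156221307 (plus), Esrra at chr19:6910977-6921813 (minus), Esrrg at chr1:187608791-188214885 (plus), Nrf1 at chr6:30047988-30153458 (plus), Gabpa at chr16:84834925-84863779 (plus), Tfam at chr10:71225464-71238280 (minus), Tfb2m at chr1:179528055-179546267 (minus) and Polrmt at chr10:79736123-79746581 (minus). All exons of a gene contribute to its count.

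The members differed widely in level. On the length-scaled TPM scale (the only scale used here between genes), Tfam led in WT-labelled myoblasts at 89.9, followed by Gabpa at 65.9, Tfb2m at 48.4, Esrra at 31.7, Nrf1 at 29.4 and Polrmt at 22.5. Ppargc1b at 6.05 and Ppargc1a at 3.02 came next, with Esrrg at 0.167 and Perm1 at 0.0097 last. Esrra and Nrf1 overlapped between libraries, so their order is not settled. In WT-labelled fused myotubes Tfam still led at 90.4 TPM, and Esrra had moved to second at 75.9, without overlap (81.3 to 95.3 against 71.5 to 80.2). Tfb2m (49.3), Gabpa (41.6) and Polrmt (33.7) followed. Ppargc1a at 18.4 overlapped with Nrf1 at 17.2, and both exceeded Ppargc1b at 7.83. Esrrg at 3.46 and Perm1 at 2.97 remained lowest and overlapped with each other.

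**Figure D1:**
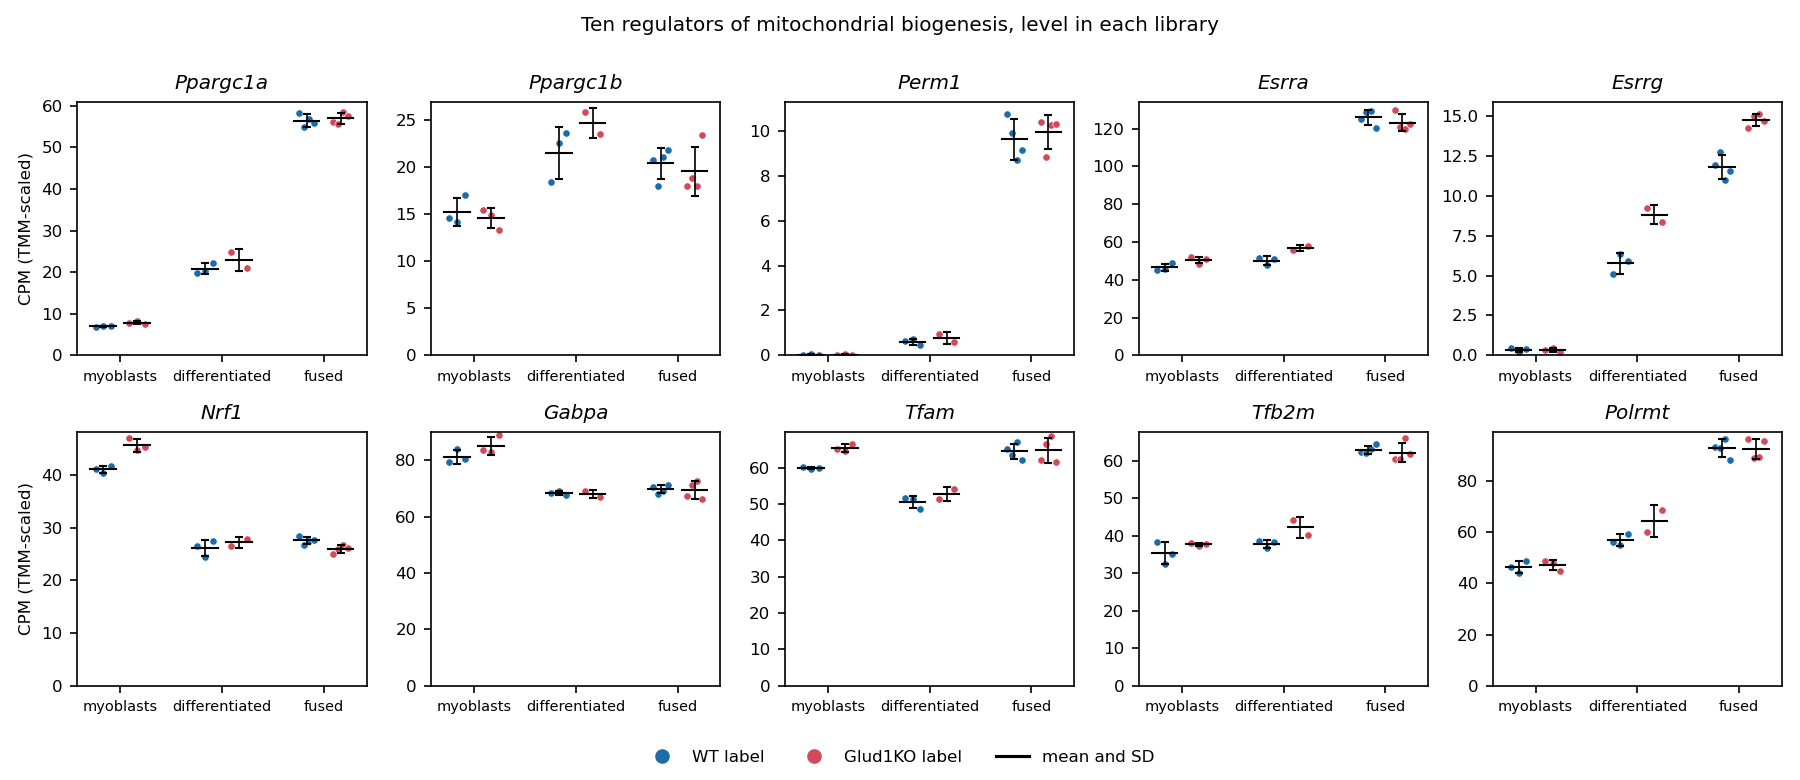
CPM of the 10 members in each of the 19 libraries by stage, WT-labelled and KO-labelled libraries in separate colours, with the mean and SD of each group marked and a separate axis for each gene. Ppargc1a, Esrrg and Perm1 climb at both steps, Nrf1 and Gabpa step down after the myoblast stage, and Tfam dips at the differentiated stage.

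Differentiation and fusion changed nearly all members in the WT-labelled libraries. Between myoblasts and differentiated myotubes, 6 members rose and 3 fell by edgeR at an adjusted p under 0.05, the threshold used throughout. Of all 15129 genes tested, 85.0% passed in this comparison, so a call alone sets no member apart and the size and direction carry the description. Between differentiated and fused myotubes 7 rose, against 75.1% of all genes called. From myoblasts to fused myotubes 8 rose and 2 fell, against 85.5% of all genes. The median log2 change of the members over that whole course was 0.91, and that of all genes tested was -0.01. All 10 members passed the filter on low counts, but Perm1 had at most 2 counts in any myoblast library and passed through the later stages only.

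The coactivator Ppargc1a rose at both steps. Its CPM was 6.82, 6.96 and 7.08 in WT-labelled myoblasts, 19.8, 20.4 and 22.3 in differentiated and 58.3, 54.9, 56.9 and 55.9 in fused myotubes. All libraries of a stage lay above all of the stage before, with little spread within a stage. The log2 change was 1.59 ± 0.070 (SE) from myoblasts to differentiated myotubes and 1.44 ± 0.052 from there to fused myotubes, 8.12-fold over the course (edgeR adjusted p = 9.25e-26). KO-labelled libraries gave 7.73, 8.31 and 7.53 CPM in myoblasts, 24.9 and 21.1 in differentiated and 56.2, 55.8, 58.5 and 57.5 in fused myotubes, 7.26-fold over the course. The transcript Ppargc1a-203, a protein-coding form of 6464 nucleotides, held 71.9% to 82.3% of the gene's estimated counts as group means. Ppargc1a-201, which the annotation marks as a target of nonsense-mediated decay, held 15.3% to 23.6%.

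Its paralog Ppargc1b rose by less, at the first step. WT-labelled myoblasts had 14.6, 14.2 and 17.0 CPM, differentiated myotubes 18.4, 22.6 and 23.7 and fused myotubes 20.8, 18.0, 21.1 and 21.8. The differentiated libraries all exceeded the myoblasts and overlapped the fused ones. The log2 change was 0.50 ± 0.096 at the first step and -0.08 ± 0.090 at the second (edgeR adjusted p = 0.427). In the KO-labelled libraries the level rose by 0.76 on the log2 scale and then changed by -0.35 (adjusted p = 0.00482 by edgeR). That fall was not called without KO-labelled differentiated replicate 1 (-0.28, adjusted p = 0.0817) or with effective transcript lengths (-0.28, adjusted p = 0.139). The WT-labelled second step became a called fall with length and GC trends removed (-0.20, adjusted p = 0.0289). With scaling by library size only, the rise from myoblasts to fused myotubes was not called under either label. It was then 0.10 in WT-labelled (edgeR adjusted p = 0.305) and 0.09 in KO-labelled libraries (0.34).

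The balance between the paralogs turned over. The TPM ratio of Ppargc1a to Ppargc1b was 0.508 ± 0.115 in WT-labelled myoblasts (SD, n = 3), 0.833 ± 0.109 in differentiated (n = 3) and 2.44 ± 0.589 in fused myotubes (n = 4). In KO-labelled libraries it was 0.508 ± 0.037 (n = 3), 0.772 ± 0.157 (n = 2) and 2.13 ± 0.273 (n = 4). Every myoblast and differentiated library lay below 1 and every fused library above it.

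**Figure D2:**
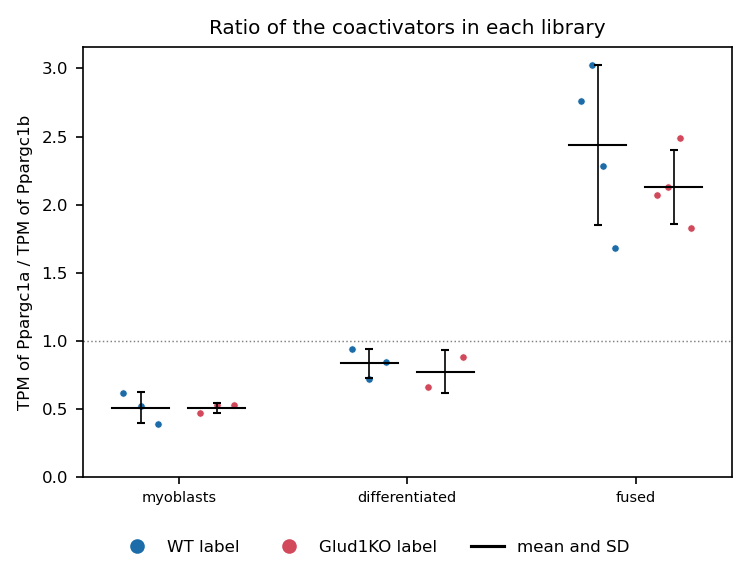
Ratio of Ppargc1a to Ppargc1b TPM in each library by stage and genotype label, with the mean and SD of each group and a dotted line at a ratio of 1. The highest library before fusion is at 0.937 and the lowest after fusion at 1.68.

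Perm1, a muscle protein known to act with PGC-1 and the ERRs on oxidative genes, went from near absence to a clear signal. Estimated counts were 1, 1 and 0 in the WT-labelled myoblasts, 13, 17 and 13 in differentiated and 236, 156, 141 and 222 in fused myotubes. KO-labelled libraries had 0, 2 and 1, then 18 and 11, then 166, 159, 241 and 155. No stage overlapped the one before. Since the myoblasts held only 2 and 3 counts in all, the change is given as a ratio of pooled CPM with a 95% interval for counting error alone. For WT-labelled libraries it was 24.2-fold (6.3 to 206) to differentiated and 394-fold (109 to 3257) to fused myotubes. KO-labelled libraries gave 24.6-fold (7.62 to 126) and 319-fold (109 to 1549). Between the later stages, where counts allow a fit, the log2 rise was 4.01 ± 0.18 in WT-labelled and 3.69 ± 0.21 in KO-labelled libraries. The differentiated stage held 0.605 of the 9.63 CPM that WT-labelled Perm1 reached after fusion, beside 20.8 of 56.5 for Ppargc1a.

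**Figure D3:**
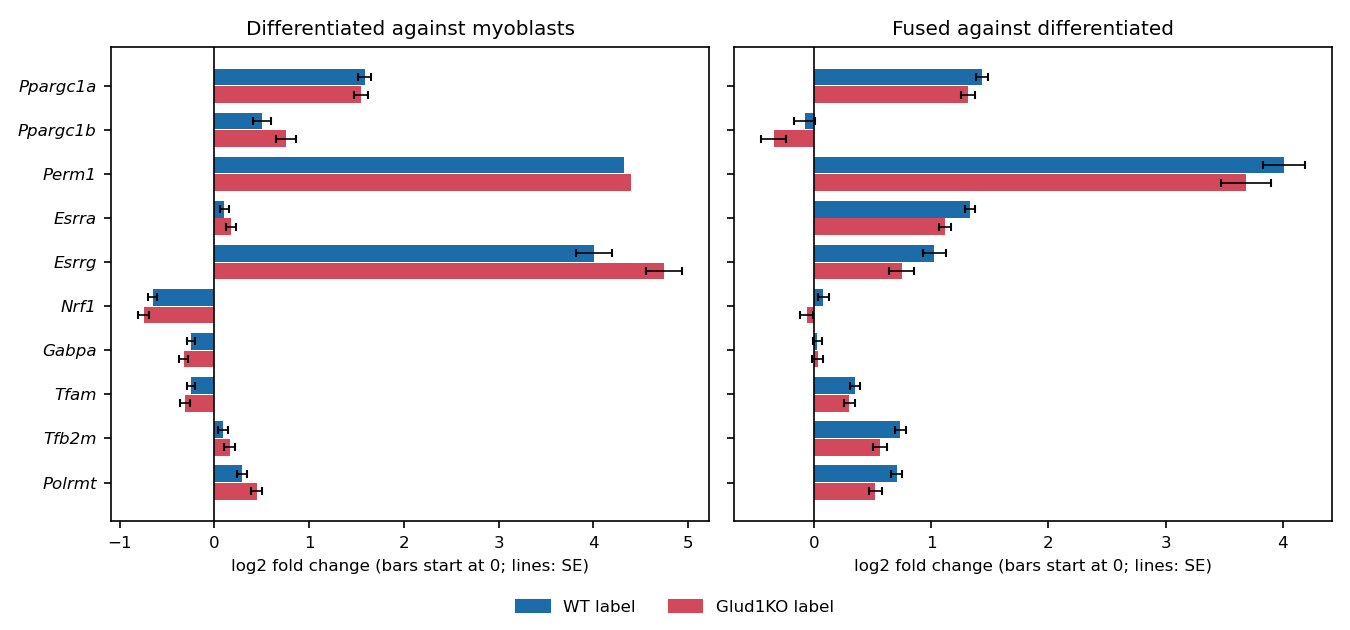
Log2 change of each member at the step from myoblasts to differentiated and at the step from differentiated to fused myotubes, for both genotype labels, with standard errors (none for Perm1 at the first step, where myoblast counts are at most 2). The panels have different axis ranges. Esrra, Tfb2m and Polrmt change more at the second step, Ppargc1b and Nrf1 at the first.

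Esrra, the most abundant ERR, rose almost wholly at the fusion step. WT-labelled CPM was 45.1, 45.7 and 48.9 in myoblasts, 51.7, 47.6 and 50.9 in differentiated and 125, 129, 129.5 and 120.4 in fused myotubes. Myoblasts and differentiated myotubes overlapped, and the fused libraries stood far above both. The second step was 1.33 ± 0.042 on the log2 scale, or 2.51-fold (edgeR adjusted p = 3.44e-20). The first was 0.10 ± 0.047 (adjusted p = 0.042 by edgeR), a call that reversed when libraries were scaled by size only (-0.15), turned to -0.02 once trends with gene length and GC content were removed, and was lost with no filter on low counts (0.04, adjusted p = 0.57) and without WT-labelled myoblast replicate 1 (adjusted p = 0.151) or 2 (0.115), or differentiated replicate 1 (0.11) or 3 (0.106). KO-labelled libraries went from 51.8, 48.4 and 50.7 to 55.8 and 57.8 and then 129.6, 121, 119.8 and 123 CPM, and their first step of 0.17 reversed (-0.13) or turned to -0.02 under the same settings. It was also lost without KO-labelled differentiated replicate 2 (adjusted p = 0.0754) and with no filter on low counts (0.136). Trmt112 overlaps Esrra on the other strand, and whether counting used strand is not stated. Of the 31-base words of Esrra transcripts, 3.47% occur in other genes.

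Esrrg was nearly off in myoblasts and rose at the first step. WT-labelled CPM was 0.457, 0.216 and 0.368 in myoblasts, 5.07, 6.36 and 5.91 in differentiated and 11.9, 12.8, 11.0 and 11.6 in fused myotubes. The KO-labelled values were 0.315, 0.458 and 0.196, then 9.25 and 8.39, then 14.2, 15.0, 15.1 and 14.7. No stage overlapped another within a label. The pooled ratio to myoblasts was 16.3-fold (11.2 to 24.7) at the differentiated and 33.1-fold (22.9 to 49.7) at the fused stage in WT-labelled libraries, with 95% counting intervals. KO-labelled libraries gave 27.3-fold (18.9 to 40.8) and 45.9-fold (32.1 to 67.9). Both myoblast groups held few counts, 29 and 31 in all. The RefSeq promoter of Esrrg with the MEF2 match starts far upstream of the transcript Esrrg-201 and need not be the one in use.

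The third receptor, Esrrb, is no member but belongs to the same family and shares no 31-base word with the other ERRs. It rose from 0.727 ± 0.0555 CPM (SD, n = 3) in WT-labelled myoblasts to 27.1 ± 1.58 (n = 4) in fused myotubes. As TPM, Esrrb and Esrrg together were 0.476 ± 0.123 in WT-labelled myoblasts, 5.39 ± 0.262 in differentiated and 11.8 ± 1.2 in fused myotubes, against 31.7, 32.7 and 75.9 for Esrra alone. Esrra thus outweighed the other receptors in sum at every stage.

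Nrf1 fell at the first step and stayed down. WT-labelled CPM was 41.1, 40.5 and 41.7 in myoblasts, 26.5, 24.4 and 27.5 in differentiated and 28.4, 26.8, 27.6 and 27.7 in fused myotubes. Every myoblast library lay above every later library, and the later stages overlapped. The log2 change was -0.65 ± 0.048 at the first step (edgeR adjusted p = 8.14e-13) and 0.08 ± 0.048 at the second (adjusted p = 0.135; 0.0439 without WT-labelled differentiated replicate 3). KO-labelled libraries fell from 47.1, 44.7 and 45.4 to 26.5 and 27.9 and had 25.0, 26.0, 26.7 and 26.2 CPM after fusion.

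Gabpa, the DNA-binding subunit of GABP, fell by less over the course on the CPM scale. WT-labelled libraries ranged over 79.2 to 83.9 CPM in myoblasts, 67.8 to 69.2 in differentiated and 68.1 to 71.2 in fused myotubes. The log2 change from myoblasts to fused myotubes was -0.22 ± 0.038 in WT-labelled and -0.29 ± 0.038 in KO-labelled libraries, and it turned positive (0.14 and 0.15) once trends with gene length and GC content were removed. With that setting the second step was a called rise of 0.24 under each label (adjusted p = 5.74e-07 and 9.74e-06), against 0.03 and 0.03, not called, without it. Its 31-base words are shared with Atp5j (5.51%), which lies on the opposite strand. On the CPM scale both DNA-binding factors thus ended lower than in myoblasts while Ppargc1a and the ERRs ended higher.

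Of the mitochondrial transcription proteins, Polrmt rose at both steps. WT-labelled CPM was 46.3, 44.2 and 48.7 in myoblasts, 56.1, 55.0 and 59.5 in differentiated and 93.4, 93.2, 96.7 and 88.2 in fused myotubes. No stage overlapped the one before. The log2 change was 0.29 ± 0.053 and then 0.70 ± 0.049 (2.0-fold over the course, edgeR adjusted p = 9.98e-17). With scaling by library size only, the first step was 0.04 and was not called (adjusted p = 0.464). KO-labelled libraries had 48.6, 48.1 and 44.8, then 60.0 and 68.8, then 96.4, 89.2, 89.6 and 95.6 CPM.

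Tfb2m rose at the fusion step, from 36.7 to 38.6 CPM in WT-labelled differentiated to 62.0 to 64.5 in fused myotubes (log2 change 0.74 ± 0.049). Its first step of 0.09 ± 0.053 was not called (edgeR adjusted p = 0.1), became a call in 5 alternatives (0.13 to 0.16: DESeq2 size factors, the filter on mean CPM, length and GC trends removed, DESeq2, and without WT-labelled myoblast replicate 1), and reversed with scaling by library size only (-0.16) or with effective transcript lengths (-0.35). In KO-labelled libraries this step of 0.16 (edgeR adjusted p = 0.0145) reversed under the same settings (-0.15 and -0.35). It was not called with no filter on low counts (0.09, adjusted p = 0.25) or without differentiated replicate 1 (0.08). Tfb2m values are uncertain, because 36.4% of its 31-base words occur in other genes, nearly all of them in Gm1818, which was not among the genes analysed here.

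Tfam dipped and recovered. WT-labelled CPM was 60.1, 59.6 and 60.0 in myoblasts, 51.7, 51.5 and 48.7 in differentiated and 65.0, 63.5, 67.1 and 62.2 in fused myotubes. The differentiated libraries lay below all others of the label. The log2 change was -0.24 ± 0.044 and then 0.35 ± 0.042, so that fused myotubes ended 0.11 ± 0.041 above myoblasts (edgeR adjusted p = 0.0203). That small net rise reversed with scaling by library size only (-0.22) and was larger with effective transcript lengths (0.27) or with length and GC trends removed (0.45). It was not called with no filter on low counts (0.05, adjusted p = 0.41), or without WT-labelled myoblast replicate 2 (adjusted p = 0.0522) or fused replicate 3 (0.0666). The dip was absent once trends with gene length and GC content were removed (0.002) and was not called with effective transcript lengths (adjusted p = 0.285). KO-labelled libraries went from 65.2, 64.5 and 66.5 to 51.4 and 54.0 and back to 62.1, 66.5, 68.8 and 61.6 CPM, with a net change of -0.01 (adjusted p = 0.819 by edgeR) that became 0.39 with those trends removed. With scaling by library size only, that net change was a called fall (-0.33, adjusted p = 3.13e-08 by edgeR). Of the proteins that work together on mitochondrial promoters, Polrmt was thus called at both WT-labelled steps, Tfb2m at the second, and Tfam at both with opposite signs.

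In the KO-labelled libraries 7 members rose and 3 fell from myoblasts to differentiated myotubes, 7 rose and 1 (Ppargc1b) fell at the next step, and 7 rose and 2 fell over the course. Of all genes tested, 83.7%, 70.2% and 87.2% were called in these comparisons. Nrf1, Gabpa and Tfam fell at the first step under both labels, and Nrf1 and Gabpa stayed lower over the course under both. As under the WT label, the KO-labelled Tfam fall was not called with effective transcript lengths (-0.13, adjusted p = 0.243) or with length and GC trends removed (-0.005, adjusted p = 0.927). At the second step, effective transcript lengths ended the KO-labelled calls of Esrrg (0.486, edgeR adjusted p = 0.0654), Tfam (0.147, 0.196) and Polrmt (0.175, 0.179). The Ppargc1b fall was lost with them too, as given above.

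Across the 19 libraries, pairs of members followed each other to different degrees (Pearson r of log2 CPM, as a description: the points share stage, label and library). Ppargc1a and Perm1 had r = 0.99 and Esrra and Tfb2m r = 0.98. Nrf1 and Gabpa had r = 0.95 with each other, and Nrf1 had r = -0.96 with Esrrg. Tfam followed none closely (r = 0.18 with Ppargc1a and 0.54 with Esrra). Among 11516 genes compared over the same libraries, those most like Ppargc1a were Gpd1l, Trp63, Sod2, Hadhb and Atl2, with r from 0.9979 for Gpd1l to 0.9965 for Atl2. Those most like Perm1 were Sesn1, Pank1, Ndufs1, Coq9 and Tfeb, with r from 0.9969 for Sesn1 to 0.9951 for Tfeb. Perm1 had at most 2 counts in any myoblast library, so its log2 CPM there was set mainly by the small count added before taking logs. All r values of Perm1, including that with Ppargc1a, therefore rest largely on its rise between stages and cannot show likeness within myoblasts.

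The comparison of genotype labels asked whether the Glud1-deficient label went with other levels of these regulators. In myoblasts 2 of 10 members were higher in the KO-labelled libraries by edgeR, against 11.5% of all genes called. In differentiated myotubes 3 of 10 were higher, against 25.2% of all genes, and in fused myotubes 1 of 10, against 13.0%. All 6 calls were towards higher levels in KO-labelled libraries. Of all genes called, 735 of 1744 were higher there in myoblasts, 1675 of 3813 in differentiated and 957 of 1968 in fused myotubes. The member shares are near the background share. The median log2 difference of the members was 0.10 in myoblasts, 0.17 in differentiated and -0.01 in fused myotubes, beside 0.01, -0.01 and -0.01 over all genes tested.

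**Figure D4:**
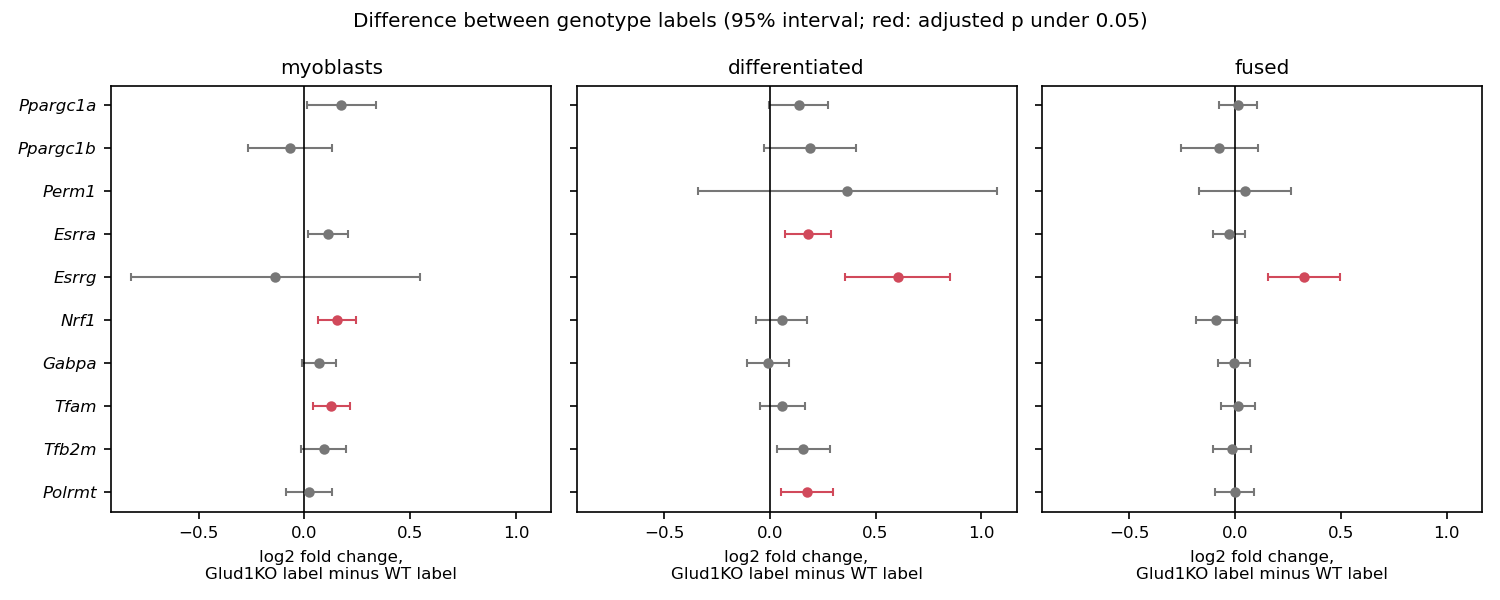
Log2 difference between KO-labelled and WT-labelled libraries for each member at the 3 stages, with 95% intervals, in red where the edgeR adjusted p is under 0.05 (Perm1 is not drawn for myoblasts). Esrrg stands out at 0.60 in differentiated and 0.33 in fused myotubes, and most members lie within 0.2 of 0.

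Esrrg had the largest called differences between the labels among the members. The differentiated values were 9.25 and 8.39 CPM in KO-labelled against 5.07, 6.36 and 5.91 in WT-labelled libraries, and the fused values 14.2, 15.0, 15.1 and 14.7 against 11.9, 12.8, 11.0 and 11.6. The labels did not overlap at either stage. The log2 difference was 0.60 ± 0.12 (SE; 95% interval 0.36 to 0.85; edgeR adjusted p = 0.000459) in differentiated and 0.33 ± 0.083 (0.16 to 0.50; adjusted p = 0.00873) in fused myotubes. The differentiated call was kept in all 14 alternatives. The fused call was lost only where effective transcript lengths were used (adjusted p = 0.371). In myoblasts, at under 0.5 CPM, the interval of -0.82 to 0.55 allows large differences either way.

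Esrrb differed between the labels in the opposite direction to Esrrg. It was 7.1 ± 0.0996 CPM in KO-labelled (n = 2) against 10.6 ± 1.52 in WT-labelled differentiated myotubes (n = 3), and 19.1 ± 1.13 against 27.1 ± 1.58 in fused myotubes (n = 4 each). The log2 difference was -0.58 ± 0.11 (edgeR adjusted p = 0.000358; 0.0572 with effective transcript lengths) and -0.50 ± 0.069 (adjusted p = 1.11e-05). The sum of both in TPM was 5.31 ± 1.14 in KO-labelled and 5.39 ± 0.262 in WT-labelled differentiated myotubes. In fused myotubes it was 9.92 ± 0.45 (9.27 to 10.3) and 11.8 ± 1.2 (10.2 to 13.1), ranges that overlap slightly. The make-up of the pair thus shifted towards Esrrg in KO-labelled myotubes.

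**Figure D5:**
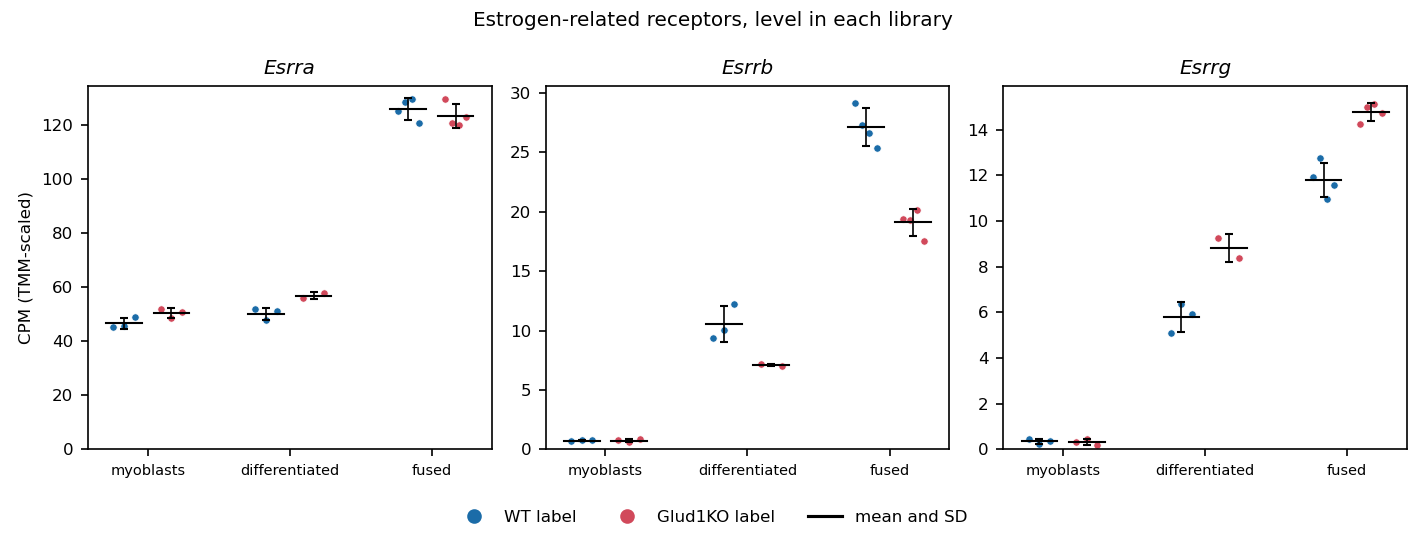
CPM of the estrogen-related receptors Esrra, Esrrb and Esrrg in each library by stage and genotype label, with the mean and SD of each group, on a separate axis for each gene. In fused myotubes Esrrb is lower (mean 19.1 against 27.1) and Esrrg higher (14.8 against 11.8) in the KO-labelled libraries.

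Nrf1 and Tfam were the members called in myoblasts. Nrf1 was 47.1, 44.7 and 45.4 CPM in KO-labelled and 41.1, 40.5 and 41.7 in WT-labelled libraries, without overlap (log2 difference 0.15 ± 0.044; edgeR adjusted p = 0.0211). It was not called without WT-labelled replicate 1 (adjusted p = 0.0572) or 2 (0.0763), or KO-labelled replicate 1 (0.109) or 3 (0.0527), nor by DESeq2 (0.076), and was lost in 7 of 15 alternatives in all. Tfam was 65.2, 64.5 and 66.5 against 60.1, 59.6 and 60.0 CPM, again without overlap (0.13 ± 0.042; edgeR adjusted p = 0.0485). That call was lost in 12 of 15 alternatives, among them leaving out any 1 of the 6 libraries (adjusted p from 0.0839 to 0.159). Ppargc1a did not overlap between the labels in myoblasts either, but its difference of 0.18 was not called (adjusted p = 0.159). Esrra was not called either (0.11, edgeR adjusted p = 0.119), but it was called higher with effective transcript lengths (0.23, adjusted p = 0.0239) and with length and GC trends removed (0.14, adjusted p = 0.00951).

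In differentiated myotubes Esrra and Polrmt were also called. Esrra was 55.8 and 57.8 CPM in KO-labelled and 51.7, 47.6 and 50.9 in WT-labelled libraries (0.18 ± 0.053; edgeR adjusted p = 0.0126). The call was lost without WT-labelled replicate 2 (adjusted p = 0.0624) or KO-labelled replicate 2 (0.136), and with scaling by library size only (0.0963). Polrmt was 60.0 and 68.8 against 56.1, 55.0 and 59.5 CPM (0.18 ± 0.060; edgeR adjusted p = 0.0283), with the higher KO-labelled library, replicate 2, carrying most of it: without that library the difference was 0.08 (adjusted p = 0.544). Leaving out WT-labelled replicate 1 or 2 also ended the Polrmt call (0.0514 and 0.0924). The call was lost too with scaling by library size only (0.121, edgeR adjusted p = 0.133) and with only the libraries compared (0.177, 0.0619). Tfb2m at 40.3 to 44.3 against 36.7 to 38.6 CPM did not overlap and was just short of the threshold (0.16; adjusted p = 0.0561). Tfb2m was called with DESeq2 size factors (edgeR adjusted p = 0.0308) or the filter on mean CPM (0.0357), and by DESeq2 (0.036). Without KO-labelled replicate 2, which leaves a single KO-labelled library, the Tfb2m difference was 0.23. Ppargc1a was called with length and GC trends removed (0.22, edgeR adjusted p = 0.0129). Its difference was 0.25 without KO-labelled replicate 2, again with a single KO-labelled library.

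In fused myotubes, where both labels have 4 libraries, 9 members were not called. The 95% intervals of their log2 differences were -0.08 to 0.10 for Ppargc1a, -0.11 to 0.05 for Esrra, -0.07 to 0.09 for Tfam and -0.09 to 0.09 for Polrmt. They were wider for Ppargc1b (-0.26 to 0.11) and Perm1 (-0.17 to 0.26). Nrf1 did not overlap between the labels, at 25.0, 26.0, 26.7 and 26.2 CPM in KO-labelled against 28.4, 26.8, 27.6 and 27.7 in WT-labelled libraries, and its difference of -0.09 was not called (edgeR adjusted p = 0.241).

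Markers of myogenic progress moved with the label in myoblasts. The summed CPM of 7 myogenic markers was 1712 to 1761 in KO-labelled and 2000 to 2239 in WT-labelled myoblasts, and 5 of 7 were lower in the KO-labelled libraries: Des (-0.33 log2), Myog (-0.63), Ckm (-0.81), Acta1 (-0.78) and Mymk (-0.45). In differentiated myotubes Mymk was higher (0.28) and Myod1 (-0.31) and Myf5 (-0.19) were lower. In fused myotubes Myf5 (-0.31) was lower and the other 6 were not called. The sum at these later stages was 19370 to 23200 CPM in all libraries. Other cell-type markers were also lower in KO-labelled myoblasts: Rgs5 (-0.25), Cspg4 (-0.86) and the fibroblast list's Ly6a (-0.94; 2.75 to 3.31 against 5.49 to 6.18 CPM). Pdgfra, the other fibroblast marker that passed the filter, was not called (0.25 in myoblasts and 0.35 in differentiated myotubes). In differentiated myotubes Myh11 was higher (1.26), and Cspg4 (-1.26) and Ly6a (0 to 0.0524 against 0.305 to 0.711 CPM) were lower. The part of these shifts in the label differences of the members was not tested.

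The label difference itself changed between stages for few members. From myoblasts to differentiated myotubes 0 of 10 members were called in the test of that change by edgeR, against 19.1% of all genes, with 0 at an unadjusted p under 0.05 and 0 by DESeq2. From differentiated to fused myotubes 1 was called, against 14.8% of all genes: the Esrra difference went from 0.18 to -0.03, a change of -0.21 ± 0.065 (edgeR adjusted p = 0.0268). It was lost in 7 of 22 alternatives, among them those without WT-labelled differentiated replicate 2 (0.0768), KO-labelled differentiated replicate 1 (0.0504) or 2 (0.145), or KO-labelled fused replicate 3 (0.0519). Polrmt was called in the test from differentiated to fused myotubes with length and GC trends removed (-0.187, edgeR adjusted p = 0.0162). Leaving out KO-labelled differentiated replicate 1 left a single library in that group. The Polrmt change was then -0.28 in that test and 0.25 from myoblasts to differentiated myotubes.

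From myoblasts to fused myotubes 1 member was called, against 10.3% of all genes. The Nrf1 difference went from 0.15 to -0.09, a change of -0.24 ± 0.064 (edgeR adjusted p = 0.014), so Nrf1 fell further in the KO-labelled libraries over the course (-0.81 against -0.57). This call was lost only with effective transcript lengths (adjusted p = 0.26). The larger Esrrg difference in differentiated than in fused myotubes was not called as a change (adjusted p = 0.224).

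Other genes of the pathway were taken as 4 lists, and their counts stand beside the shares of all genes called: 85.5% from WT-labelled myoblasts to fused myotubes, and 11.5%, 25.2% and 13.0% between the labels in myoblasts, differentiated and fused myotubes. Of 18 further regulators, 8 rose and 9 fell from WT-labelled myoblasts to fused myotubes. Esrrb, Ppara, a receptor that drives fatty acid oxidation genes, and Prkaa2, a catalytic subunit of the energy sensor AMPK, rose most (log2 5.22, 5.02 and 4.37). Gabpb2, a partner subunit of Gabpa, fell by 2.61 on the log2 scale, Creb1 by 1.54 and the deacetylase Sirt1 by 1.18. Between the labels, 1 was lower in KO-labelled myoblasts (Rxra, -0.15). In differentiated myotubes 1 was higher (Rxra, 0.22) and 4 lower, among them Esrrb and the corepressor Nrip1 (-0.26). In fused myotubes 1 was higher (Prkaa1, 0.19) and 4 lower, among them Esrrb and the PGC-1 relative Pprc1 (-0.22). The fused Pprc1 call was lost with effective transcript lengths (adjusted p = 0.0923). The myoblast Rxra call was lost without WT-labelled or KO-labelled replicate 3, with effective transcript lengths (adjusted p = 0.196) and with length and GC trends removed, the differentiated one without KO-labelled replicate 2 (adjusted p = 0.0637). Leaving out KO-labelled differentiated replicate 1 or 2, or fused replicate 1, reduced the count of calls at that stage from 5 to 3.

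Of 17 genes for copying, transcribing and keeping mitochondrial DNA, 8 rose and 6 fell from WT-labelled myoblasts to fused myotubes. The ribosomal RNA methyltransferase Tfb1m (1.88), Mterf4 (1.35) and the elongation factor Tefm (0.94) rose most, while Rnaseh1 (-0.98), Exog (-0.97) and Mterf1a (-0.90) fell. Of all genes tested, 6380 rose and 6560 fell. Polg, the catalytic subunit of the mitochondrial DNA polymerase, was higher in KO-labelled myoblasts (0.22, edgeR adjusted p = 0.00357) as the only gene called there. In differentiated myotubes 4 of 17 were called, near the 25.2% of all genes, all higher, among them Polg (0.29), the helicase Twnk (0.25) and Primpol (0.29). In fused myotubes Twnk was higher (0.13) and the protease Lonp1 lower (-0.12). Both Polg calls were lost with effective transcript lengths (adjusted p = 0.355 in myoblasts and 0.121 in differentiated myotubes). Single libraries decided several of the other calls. Without KO-labelled differentiated replicate 2 only 1 of the 4 was called, Primpol was lost without either KO-labelled library, and in fused myotubes Twnk was lost in 10 and Lonp1 in 5 of 17 alternatives, with 0 calls left without WT-labelled replicate 2 or KO-labelled replicate 1.

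Of 18 known targets of PGC-1 and the ERRs, 17 rose from WT-labelled myoblasts to fused myotubes and 1, Vegfa, fell (-1.17), beside 85.5% of all genes called. At the first step 14 rose, 2 fell and 2 were not called. The median log2 change of the list was 1.77. Ckmt2, the muscle mitochondrial creatine kinase, went from 0.308 to 136 CPM, and Cox7a1, a muscle subunit of cytochrome oxidase, from 0.501 to 38.9. In KO-labelled myoblasts 2 were lower, Fabp3 (-0.68) and Cox6a2 (-0.68). In differentiated myotubes 8 of 18 were higher and 1 lower, beside 25.2% of all genes called, with Fabp3 at 0.47, Cox6a2 at 0.54 and Mfn2 at 0.20. In fused myotubes 4 were higher, among them Pdk4 (0.35), Ckmt2 (0.32) and Cox6a2 (0.24), and 1 was lower. The differentiated count fell from 9 to 5 without WT-labelled replicate 2 or KO-labelled replicate 2, and the myoblast Cox6a2 call was lost without WT-labelled replicate 3 (adjusted p = 0.0538).

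Transcripts encoded in the mitochondrial DNA, the template of Polrmt, rose at the first step under both labels. All 13 protein-coding ones rose from WT-labelled myoblasts to differentiated myotubes (median log2 change 1.57), beside 85.0% of all genes called. Their genes lie together on that DNA, all but mt-Nd6 on the same strand. Counts of their calls, here and below, are therefore not counts of independent genes. From differentiated to fused myotubes 1 rose and 11 fell (median -0.45), beside 75.1% of all genes called. With length and GC trends removed, 1 rose and 5 fell at that step. The nuclear genes Tfam, Polrmt and Tfb2m (uncertain, as said above) rose there. KO-labelled libraries gave 13 mitochondrial transcripts higher at the first step (median 2.18, beside 83.7% of all genes called). At the second, 1 was higher and 12 were lower (median -0.81, beside 70.2% of all genes called). Between the labels, 12 of 13 were higher in KO-labelled differentiated myotubes (median 0.48), beside 25.2% of all genes called, with mt-Co3 at 5666 against 3994 CPM (0.50 ± 0.068; edgeR adjusted p = 2.95e-06). In fused myotubes 5 were higher (mt-Nd3 0.36, mt-Co3 0.33), and in myoblasts 1 was lower (mt-Nd5, -0.37). The differentiated count was 9 with length and GC trends removed (mt-Nd3 then had an adjusted p of 0.336) and 11 to 13 in the other alternatives. The myoblast count ranged from 0 (with effective transcript lengths, or without WT-labelled replicate 2 or KO-labelled replicate 3) to 8 lower (trends with length and GC content removed), and the fused count fell to 2 with effective transcript lengths or without WT-labelled replicate 1, and to 3 with those trends removed, by DESeq2, or without WT-labelled replicate 2 or 3 or KO-labelled replicate 2, 3 or 4. The libraries were made with a kit for messenger RNA, and how it captures mitochondrial transcripts was not tested.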

How the data were processed

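Messenger RNA was sequenced in 19 libraries. For each of 121843 transcripts the authors deposited an estimated count, a TPM value, a length and an effective length, per the file headers. The submitters' processing notes name bcl2fastq 2.20, fastp 0.20.0, kallisto 0.46.1, edgeR 3.36 and the build GRCm38.p6, without role or order. Estimated counts share reads between similar transcripts. The TPM values deposited by the authors are scaled for length and depth. They served to compare levels between genes, and for the sum of Esrrb and Esrrg also between stages and labels. The TMM correction for library composition was not applied to them. RNA was extracted with an RNeasy kit and libraries were made with a TruSeq mRNA kit, per the labels' protocols.

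Transcripts were assigned to genes with GENCODE M21. Of these, 121104 matched, and the 739 without a match, holding 0.244% to 0.496% of the counts of a library, were left out. Counts were summed per gene and rounded. One edgeR 4.0.16 quasi-likelihood fit (R 4.3.3) held all 19 libraries, with a coefficient for each of 6 groups, TMM scaling and filterByExpr, which kept 15129 genes. The 12 comparisons were adjusted by Benjamini-Hochberg over these genes and called under 0.05. The common biological coefficient of variation was 4.04%. Replicates differed by more than sampling noise (chi-square per degree of freedom 2.14 to 7.68). CPM is on the TMM scale, and its correlations used log2 CPM with a prior count of 2. Intervals on pooled counts are exact at 95% and cover counting error only, since reads copied by PCR are not independent molecules. The fit was tested on simulated data.

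The 28 alternatives were DESeq2 size factors, library size only, no filter, a mean CPM of at least 1, a replicate block, effective lengths, removal of length and GC trends, only the libraries compared, DESeq2 1.42.0, and leaving out each of the 19 libraries. Leaving out either KO-labelled differentiated library left a single library in that group, so the spread then came from the other groups. Every member was named. From other lists, at most 3 genes per direction were named by size of the WT-labelled change from myoblasts to fused myotubes, and at most 3 per stage by adjusted p between labels. Likeness to Ppargc1a and Perm1 was ranked by Pearson r among genes with a mean CPM of at least 1. The members and lists were chosen with earlier results of these data known.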

Additional observations from a re-analysis of the deposited data

Results flagged for a closer look

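Of 20 groups of 4 fused libraries (10 members under each label), 2 had a library standing apart from the other 3, where chance gives about 1 in 20. KO-labelled fused replicate 4 had 23.4 CPM of Ppargc1b, above 18.0 to 18.9 in the others. KO-labelled fused replicate 2 had 8.84 CPM of Perm1, below 10.3 to 10.4 in the others. Neither gene was called between the labels at that stage.

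For 2 members the label difference changed between stages by the edgeR test of the change itself. The Esrra difference moved by -0.21 on the log2 scale from differentiated to fused myotubes (adjusted p = 0.0268, higher in 2 of 2 KO-labelled differentiated libraries than in all 3 WT-labelled ones, and overlapping after fusion). The Nrf1 difference moved by -0.24 from myoblasts to fused myotubes (adjusted p = 0.014), with all 3 KO-labelled myoblast libraries above all WT-labelled ones and all 4 KO-labelled fused libraries below all WT-labelled ones.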

How the results depend on the processing

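Of 2029 values of single members under the alternatives, 1934 kept their side of the threshold with no called value changing sign (97 of them, not called in either setting, changed sign or came to 0 after rounding), 59 lost a call, 23 gained one and 13 reversed. Scaling by library size only shifted the median of all genes, relative to myoblasts, by -0.23 and -0.33 in WT-labelled and -0.31 and -0.35 in KO-labelled differentiated and fused myotubes. It reversed Esrra (-0.15 WT-labelled, -0.13 KO-labelled) and Tfb2m (-0.16, -0.15) from myoblasts to differentiated myotubes and Tfam (-0.22) in WT-labelled fused myotubes against myoblasts. Effective lengths reversed the first step of Tfb2m (-0.35 under each label). Removing length and GC trends reversed the first step of Esrra (-0.023 WT-labelled, -0.02 KO-labelled) and WT-labelled Tfam (0.002), and Gabpa (0.14 WT-labelled, 0.15 KO-labelled) and KO-labelled Tfam (0.39) in fused myotubes against myoblasts. The causes were not tested.

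Between the labels in myoblasts, the 2 member calls (Nrf1 and Tfam) became 1 with DESeq2 size factors or library size only (Nrf1), 1 with effective lengths (Esrra, 0.229, adjusted p = 0.0239, with Nrf1 and Tfam both lost), 0 with no filter or DESeq2, and 0 to 1 without single libraries. The 1744 genes called there became 585 with effective lengths, 2626 with only the libraries compared, and 925 to 1338 without single libraries. In differentiated myotubes the 3 members became 1 with library size only, 2 with only the libraries compared, 4 with DESeq2 size factors, the filter on mean CPM, the replicate block, length and GC trends removed or DESeq2, and 1 to 3 without single libraries, and the genes went from 3813 to 2148 with effective lengths. In fused myotubes effective lengths gave 0 members and 824 genes, and 4 members for KO-labelled fused against differentiated myotubes (Ppargc1b, Esrrg, Tfam and Polrmt were lost). For changes of the label difference, effective lengths gave 1453, 982 and 664 genes (differentiated against myoblasts, fused against differentiated, fused against myoblasts) and 0 members in the latter 2. Members for fused against differentiated were 0 with library size only or no filter, 2 with length and GC trends removed, and 0 to 1 without single libraries. They were 2 for fused against myoblasts with those trends removed, and 0 to 1 for differentiated against myoblasts without single libraries.

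The share of calls towards higher levels was 42.1% between the labels in myoblasts, but 29% with DESeq2 size factors, 18.8% with effective lengths and 27.2% by DESeq2. In differentiated myotubes it went from 43.9% to 27% with library size only. The replicate numbers do not pair the samples: 2 of 9 same-numbered pairs were most alike by deviation from their group means, with correlations of -0.051 to 0.028. With a replicate block, 2, 4 and 1 members and 1664, 3664 and 1858 genes were called between the labels at the 3 stages. The member gained by the block was Tfb2m in differentiated myotubes (0.171, adjusted p = 0.0352). Depth limits Perm1 and Esrrg in myoblasts, where few counts leave wide intervals.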
